A study of Mus musculus with 22 samples.

Results

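The comparison described here sets 6 arrays of colon epithelial cells from antibiotic-treated mice without the polymeric immunoglobulin receptor (KO_antibiotic) against 5 arrays from antibiotic-treated wild-type mice (WT_antibiotic), across all genes. The 11 arrays were chosen by their labelled genotype and treatment, out of 22 arrays in the series. The other 11 come from untreated mice, 6 of them KO_untreated and 5 WT_untreated, and are used to show where the genotype difference under antibiotics departs from that without them. Per the labels the mice were male, of the BALB/c strain and aged 6 to 10 weeks. Antibiotic-treated mice had received antibiotics for 17 days, and the epithelium was then shaken off the opened colon after 25 min in 20 mM EDTA, without a sort that the labels name. The sources used here do not give the antibiotics, the way the receptor gene was disrupted, the strain in which that was done or whether an array held RNA of 1 mouse or of several. If the arrays of a group were not separate mice, the p-values measure a technical spread.

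The polymeric immunoglobulin receptor, encoded by Pigr, sits on the basal side of gut epithelial cells. It binds the polymeric IgA and IgM that plasma cells of the underlying tissue secrete, carries them through the cell and releases them into the gut with a fragment of itself attached. These secretory antibodies coat gut bacteria, and antibiotics deplete the bacteria, so the comparison asks how far the epithelium differs between the genotypes once bacteria have been reduced.

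Values are log2 levels of normalised bead intensity, and differences are KO_antibiotic minus WT_antibiotic with their standard error (SE). A gene is said to have risen or fallen where the limma test gave an adjusted p under 0.05, adjusted over all 19993 tested probes. Epithelial identity was plain on all 11 arrays: Epcam, Cdh1, Krt8, Krt19, Vil1, Car1, Car4, Slc26a3, Aqp8, Krt20, Muc2 and Zg16 were each detected on every one, while the goblet cell gene Fcgbp was detected on none. The macrophage gene C1qa, the mast cell genes Mcpt2 and Tpsb2, the collagen genes Col1a1 and Col3a1 and the small intestinal lactase gene Lct were detected on none of the 11. Other markers of the small intestine and its Paneth cells were detected: Sis, Fabp6 and Lyz1 on all 11 arrays. Apoa4 was detected on 6 of 6 KO_antibiotic and 4 of 5 WT_antibiotic arrays. The pan-leukocyte gene Ptprc was detected on 2 of 6 KO_antibiotic and 1 of 5 WT_antibiotic arrays, and the T cell gene Cd3e on all 11. Other markers of myeloid, mast and stromal cells were detected on part of the arrays: Lyz2 on 6 of 6 KO_antibiotic and 4 of 5 WT_antibiotic arrays, Csf1r on 3 and 4, Mcpt1 on 5 and 5, Dcn on 5 and 5 and Acta2 on 5 and 3. Since whole preparations were measured, fewer cells of a type and less RNA per cell cannot be told apart.

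Some arrays stood apart or went against their label. KO_antibiotic 3 lacked the Y-linked signal of the other arrays, with the Y-linked gene Eif2s3y at 4.78, against 7.32 to 9.50 on the other KO_antibiotic arrays and 7.38 to 9.22 on WT_antibiotic arrays. KO_antibiotic 4 carried Eif2s3y at 8.67 together with Xist, the RNA of the inactive X chromosome, at 10.4, while Xist by the same probe lay between 4.20 and 5.57 on the other 10 arrays. Results are therefore given without these arrays where that changes a call. KO_antibiotic 6 lay farthest from its group, with a median absolute deviation of 0.34 from the group mean, against 0.218 to 0.297 on the other KO_antibiotic arrays. The arrays held 15975 to 18343 detected probes in KO_antibiotic and 16100 to 18173 in WT_antibiotic mice, a difference of means (17284 and 17479) that did not pass a two-sided exact permutation test (p = 0.716).

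In KO_antibiotic mice 6 of 19993 probes passed the test, 0.03% of those tested. They belong to 6 genes, 5 of which lie on chromosome 1, the disrupted gene Pigr among them. The share of all tested probes that lie on that chromosome is not given here. Pigr, Insig2, Kdm5b, Sox13 and Ctse fell (5 probes, 0.025%), and 1 probe of Pgk1 rose (0.005%). All 6 probes had groups that do not overlap, as 0.245% of tested probes did. At an unadjusted p under 0.05 stood 654 probes (3.27%), 347 with a higher (1.74%) and 307 with a lower mean (1.54%) in KO_antibiotic mice. That split depends on the scaling, being 325 and 75 with median scaling over all probes and 207 and 316 where that scaling used the probes detected on every array. With 1 probe per gene, the brightest, 2 of 10705 genes passed (0.0187%), Pigr and Sox13, because the probes called for the other 4 genes were not the brightest of their gene.

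The promoters of Pigr and of 2 genes near it with a probe that fell, Sox13 and Kdm5b, are shown because each has a single start in the RefSeq table. Of the 3 tested probes of Kdm5b only the called one fell. They are written in the direction of transcription, 300 bases each, on assembly GRCm38.p6: Pigr at chr1:130826434-130826733 on the plus strand, Sox13 at chr1:133424163-133424462 on the minus strand and Kdm5b at chr1:134559928-134560227 on the plus strand. Capitals mark an E-box, a short site bound by helix-loop-helix factors.
Pigr: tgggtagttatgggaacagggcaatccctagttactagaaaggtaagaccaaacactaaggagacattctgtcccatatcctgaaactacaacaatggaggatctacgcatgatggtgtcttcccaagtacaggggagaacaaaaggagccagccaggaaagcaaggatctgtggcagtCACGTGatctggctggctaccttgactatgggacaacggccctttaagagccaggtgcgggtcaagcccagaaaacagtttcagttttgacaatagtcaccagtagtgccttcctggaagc
Sox13: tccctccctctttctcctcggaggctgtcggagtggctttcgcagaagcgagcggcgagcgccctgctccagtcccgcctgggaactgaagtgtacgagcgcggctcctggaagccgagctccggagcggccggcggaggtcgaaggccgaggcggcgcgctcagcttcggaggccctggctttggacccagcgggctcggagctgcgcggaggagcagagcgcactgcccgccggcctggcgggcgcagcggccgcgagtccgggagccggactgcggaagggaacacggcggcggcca
Kdm5b: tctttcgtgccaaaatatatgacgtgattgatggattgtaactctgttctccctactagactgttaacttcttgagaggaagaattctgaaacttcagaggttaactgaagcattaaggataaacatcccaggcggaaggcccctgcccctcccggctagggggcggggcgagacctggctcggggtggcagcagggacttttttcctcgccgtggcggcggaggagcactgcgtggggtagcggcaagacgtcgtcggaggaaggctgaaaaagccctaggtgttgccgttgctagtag
Motifs were searched as letters on both strands. The E-box CACGTG occurs in the Pigr window, starting at base 180 from its 5′ end, and in 7.15% of the 32851 promoter windows of this length in the table. The TATA letters TATAAA (13.6% of windows) occur in none of the 3, so no matches overlap and the 3 windows share none. Ctse has no entry in the table, and Insig2 has 3 starts, none with a match.

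Pigr itself was lower on every KO_antibiotic array. Its 1 probe (ILMN_1225605) read 8.74, 9.23 and 10.25 as the lowest, median and highest of 6 KO_antibiotic arrays. On the WT_antibiotic arrays it read 11.42, 11.32, 11.48, 12.01 and 11.50. The groups do not overlap, and WT_antibiotic 4 was the highest of the 11 arrays. The difference of -2.20 (SE 0.30, adjusted p = 0.000654) is a 4.60-fold fall. The probe was still detected on all 6 KO_antibiotic arrays, and since the sources used here do not say whether it lies inside the deleted stretch, the signal left in KO mice is no measure of receptor. With the arrays scaled by the median over all probes Pigr did not pass (-2.04, adjusted p = 0.154).

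Of the genes in the same stretch of chromosome 1, Insig2 lies 32 genes before Pigr, and Ctse, Sox13 and Kdm5b lie 14, 43 and 66 genes after it in the order of protein-coding genes. Insig2 encodes a membrane protein of the endoplasmic reticulum that holds back sterol synthesis. Its called probe (ILMN_2690256) read 6.56, 7.10 and 7.54 as the lowest, median and highest KO_antibiotic array, against 8.63, 7.97, 8.24, 8.46 and 8.61 on the WT_antibiotic arrays. The highest KO_antibiotic array lay below the lowest WT_antibiotic array, and the difference was -1.27 (SE 0.17, adjusted p = 0.000525). Kdm5b encodes a histone demethylase. Its called probe (ILMN_2777722) read 5.71, 6.14 and 6.53 in KO_antibiotic mice, against 7.41, 7.14, 6.97, 7.29 and 7.34 in WT_antibiotic mice. Again the groups do not overlap, with a difference of -1.10 (SE 0.14, adjusted p = 0.000525).

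Sox13, a transcription factor gene of the SOX family, was measured by 1 probe (ILMN_1244292). It read 4.76, 5.48 and 5.98 as the lowest, median and highest KO_antibiotic array, against 7.20, 6.67, 6.64, 7.13 and 6.53 on the WT_antibiotic arrays. KO_antibiotic 6 was the lowest and KO_antibiotic 2 the highest of the KO arrays, still below every WT_antibiotic array, and the difference was -1.38 (SE 0.19, adjusted p = 0.000654). Ctse encodes cathepsin E, an aspartic protease of the endosomes. Its called probe (ILMN_2960325) read 7.61, 8.12 and 8.51 in KO_antibiotic mice, against 9.56, 9.98, 10.41, 9.72 and 9.89 in WT_antibiotic mice. The groups lie 1 log2 unit or more apart at their nearest arrays, and the mean difference was -1.84 (SE 0.31, adjusted p = 0.0143). The call of Ctse is the least firm of the 6: it was lost without KO_antibiotic 1 or 3, or without WT_antibiotic 2, 3 or 5 (adjusted p 0.0537 to 0.0982), and without KO_antibiotic 3 and 4 together (-1.69, adjusted p = 0.225).

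The probe that rose belongs to Pgk1, the X-linked gene of the glycolytic enzyme phosphoglycerate kinase. This probe (ILMN_2797973) read 6.06, 6.27 and 6.63 as the lowest, median and highest KO_antibiotic array. On the WT_antibiotic arrays it read 4.65, 4.50, 4.28, 4.43 and 4.33, and it was detected on 6 of 6 KO_antibiotic and 0 of 5 WT_antibiotic arrays. Against the lowest detected signal the rise was at least 2.98-fold (fitted difference 1.87, SE 0.13, adjusted p = 1.19e-08). The probe was detected on 6 of 6 KO_untreated and 0 of 5 WT_untreated arrays, so it entered the test through KO arrays alone. Its WT levels are background, and the fitted difference, SE and adjusted p rest partly on them. KO_antibiotic 3 and 4, which differ in their Y-linked and Xist signal, read 6.28 and 6.25, inside the range of the other KO arrays.

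**Figure D1:**
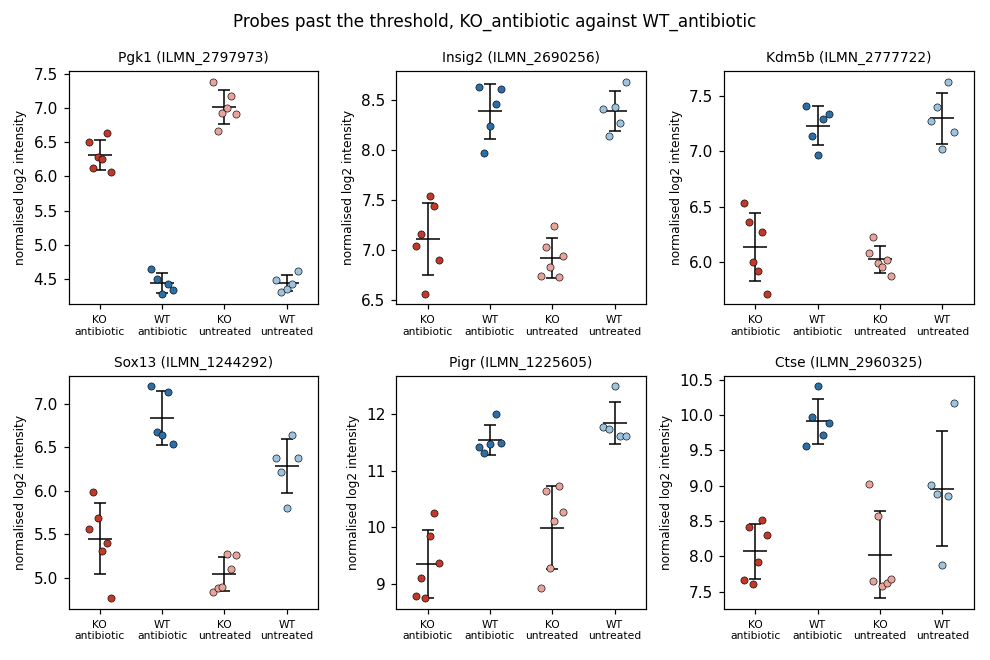
Normalised log2 intensity (vertical axis) of the 6 probes that passed in KO_antibiotic against WT_antibiotic, with 1 point per array for the 4 groups and a horizontal line and error bars for mean ± SD (6 KO and 5 WT arrays). In each panel the KO_antibiotic arrays lie on one side of all WT_antibiotic arrays: above them for Pgk1 and below them for the other 5 genes.

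Other probes of the same genes did not show differences of that size. The second tested Pgk1 probe (ILMN_2651886) read 11.32 ± 0.16 in KO_antibiotic (SD, n = 6) and 11.25 ± 0.21 in WT_antibiotic mice (SD, n = 5), a difference of 0.07 (SE 0.13). The second Insig2 probe (ILMN_1216822) differed by -0.42 (SE 0.14, unadjusted p = 0.00701), and 4 of 6 KO_antibiotic arrays lay below all WT_antibiotic arrays. For Kdm5b the brighter probe (ILMN_1251270) stood at 0.27 (SE 0.13, unadjusted p = 0.0429), on the other side of 0 from the called probe, and a dimmer one (ILMN_2946020) at -0.25 (SE 0.15). For Ctse the other probes differed by -0.78 (ILMN_1222071, SE 0.25, unadjusted p = 0.00508) and -0.49 (ILMN_1228235, SE 0.31). None of these 5 passed after adjustment. Pigr and Sox13 have no second probe on the array.

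The unequal behaviour of the probes can be read within each array, as the level of the called probe minus that of the other probe. Under antibiotics this within-array difference was 1.80 higher in KO mice for Pgk1 and lower by these amounts for the rest: -0.86 for Insig2, -1.37 and -0.85 for the 2 pairs of Kdm5b, and -1.06 and -1.35 for the 2 pairs of Ctse. The pairs were chosen by their called probe under antibiotics, so these values are a description, and in each of the 6 pairs the groups do not overlap. The untreated genotype difference did not enter that choice, but untreated arrays did, through the normalisation, the detection filter and the pooled spread. Untreated arrays gave 2.52 for Pgk1, -1.10 for Insig2 and -1.55 and -0.98 for Kdm5b, in KO_untreated minus WT_untreated. Each of these 4 pairs, and the second Ctse pair at -1.48, had a two-sided exact permutation p = 0.00216, the smallest that 6 against 5 arrays can give, and 0.00259 after Benjamini-Hochberg adjustment over the 6 pairs. The first Ctse pair stood at -0.57 with overlapping groups (exact p = 0.284). The called Pgk1 probe was detected on 0 of 5 WT_antibiotic and 0 of 5 WT_untreated arrays, so 1.80 and 2.52 are no measured size. It entered the test through KO arrays alone, so the exact p of its pair is no separate support. The dimmer Kdm5b probe (ILMN_2946020) was detected on only 3 of 6 KO_antibiotic and 4 of 6 KO_untreated arrays, so a fall of it may not show in full. An unequal change between probes of 1 gene thus passed the permutation test in untreated mice in 5 of 6 pairs, within these limits. Which of the probes follows the whole transcript was not tested.

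Around Pigr, 98 genes within 100 places on chromosome 1 were tested by their brightest probe. Of these 1, Sox13, was called (0.0187% of all genes were), and 13.3% had an unadjusted p under 0.05 (5 with a higher and 8 with a lower mean in KO_antibiotic mice), beside 3.14% of the other 10606 genes. The median difference of the neighbours was -0.02 and that of the other genes 0.01, while the median absolute difference was 0.16 and 0.11. In untreated mice the share at an unadjusted p under 0.05 was 34.7% of the neighbours and 30.2% of the other genes. Groups that do not overlap under antibiotics were found for 2 neighbours (2.04%), Sox13 and Ipo9, beside 0.255% of the other genes and 0.28% of all 10705.

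Ipo9, which encodes an importer of proteins into the nucleus, lies 79 genes after Pigr. It read 6.06, 6.35 and 6.68 as the lowest, median and highest KO_antibiotic array, against 6.98, 7.48, 7.24, 7.07 and 7.38 in WT_antibiotic mice. The difference of -0.87 (SE 0.16) just missed the threshold (adjusted p = 0.0544), which it passed without KO_antibiotic 2 (adjusted p = 0.0341) or WT_antibiotic 1 (adjusted p = 0.0487). Nuak2, a stress-responsive kinase gene 27 genes after Pigr, stood at 0.66 (unadjusted p = 0.0032), with 5 of 6 KO_antibiotic arrays above all WT_antibiotic arrays. Pign of glycosylphosphatidylinositol anchor synthesis stood at -0.54 and Ccdc93 at -0.48 (unadjusted p = 0.00844 and 0.00971). Fcmr, the gene next to Pigr and the receptor of IgM on B cells, was singled out after its values were seen: it stood at 0.81 under antibiotics (SE 0.93, KO_antibiotic 7.37 ± 1.94, SD, n = 6, and WT_antibiotic 6.56 ± 1.20, SD, n = 5). The spread of Fcmr within each group exceeded that difference. In untreated mice it had the opposite sign (-2.36, unadjusted p = 0.0181, adjusted p = 0.0959).

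**Figure D2:**
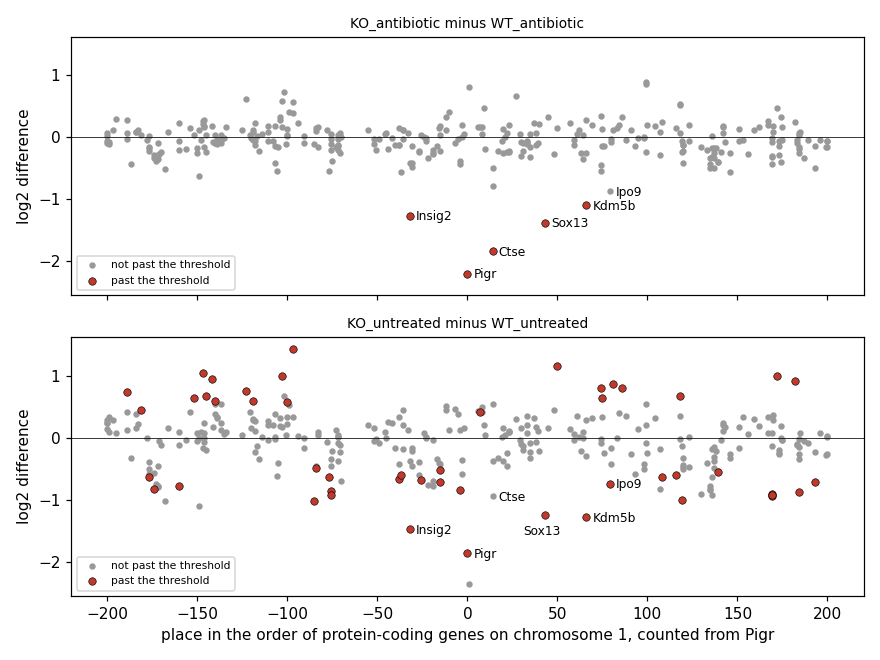
Log2 difference (vertical axis) of each tested probe by the place of its gene in the order of protein-coding genes on chromosome 1, counted from Pigr at 0 (horizontal axis), for KO_antibiotic minus WT_antibiotic (top) and KO_untreated minus WT_untreated (bottom). Red points passed the threshold: in the top panel they are Insig2, Pigr, Ctse, Sox13 and Kdm5b, while in the bottom panel red points lie on both sides of 0 along the whole window.

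Below the threshold, the largest positive differences included those of Itln1, Ang4, Retnlb and Mptx1, and they rested on 5 of the 6 KO arrays. Itln1, which encodes the lectin intelectin, read 8.54, 9.67, 10.05, 10.49 and 10.82 on KO_antibiotic 4, 5, 1, 3 and 2, but 4.41 on KO_antibiotic 6. On the WT_antibiotic arrays it read 7.15, 5.30, 4.80, 4.79 and 7.48. The first 5 KO arrays lay above every WT_antibiotic array and KO_antibiotic 6 below every one, so that the difference of 3.09 (SE 0.95) did not pass (unadjusted p = 0.00335, adjusted p = 1). Without KO_antibiotic 6 it was 4.01 (adjusted p = 0.0427), and over all alternatives the adjusted p lay between 0.0427 and 1.

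The same array decided 3 further genes. Ang4, an angiogenin gene whose product kills bacteria, read 10.46 to 11.77 on the first 5 KO_antibiotic arrays and 4.71 on KO_antibiotic 6, against 8.36, 6.06, 6.40, 4.53 and 8.66 on the WT_antibiotic arrays. Retnlb, which encodes a goblet cell protein of the resistin family, read 11.68 to 12.32 and, on KO_antibiotic 6, 7.84, against 9.79, 9.35, 8.82, 9.27 and 10.25. Mptx1, a mucosal pentraxin gene, read 13.15 to 14.40 and, on KO_antibiotic 6, 10.51, against 11.65, 10.67, 10.18, 9.97 and 12.20. The first 5 KO arrays lay above all WT_antibiotic arrays for each of these genes. Over 6 arrays the differences were 3.31 (SE 1.17) for Ang4, 1.82 (SE 0.65) for Retnlb and 2.19 (SE 0.60) for Mptx1, each with an adjusted p of 1. Without KO_antibiotic 6 they were 4.39, 2.51 (adjusted p = 0.0427) and 2.71 (adjusted p = 0.0442), and Ang4 still did not pass. That fit called 12 probes in place of 6.

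KO_antibiotic 6 also lay at the edge of its group in summed marker signals. Its summed signal was the lowest of the 6 KO arrays for the goblet cell list (96601, against 115497 to 127174 on the other 5) and for the surface colonocyte list (136675, against 154316 to 176503). The goblet cell list counts Ang4 and Retnlb, and the surface colonocyte list counts Mptx1, so these sums are not separate from those genes. For T cell and intraepithelial lymphocyte markers its sum was the highest (13521, against 3750 to 8927), as it was for stromal markers (543, against 242 to 458). WT_antibiotic 3 had the lowest surface colonocyte sum (137002) and the highest T cell sum (8947) of its group, with Itln1 at 4.80 and Ang4 at 6.40. WT_antibiotic 4 had the lowest Itln1 (4.79) and Ang4 (4.53) of that group, but the lowest T cell sum (3002) and a surface colonocyte sum of 169340. The part of this marker pattern in the defence genes was not tested.

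Pla2g2a, a secreted phospholipase gene active against bacterial membranes, separated on every array. It read 7.42, 8.74 and 9.37 as the lowest, median and highest KO_antibiotic array, against 6.20, 6.94, 6.66, 6.40 and 7.28 in WT_antibiotic mice. KO_antibiotic 6 was again the lowest KO array, and the difference of 1.90 (SE 0.50) did not pass after adjustment (unadjusted p = 0.000905, adjusted p = 1). In untreated mice Pla2g2a rose in the KO (2.51, adjusted p = 0.00536), as did Retnlb (2.06, adjusted p = 0.0447), while Itln1 (2.57, adjusted p = 0.0773), Ang4 (2.80, adjusted p = 0.114) and Mptx1 (1.64, adjusted p = 0.0776) did not pass there. The difference between the genotype differences with and without antibiotics was -0.61 for Pla2g2a, -0.24 for Retnlb, 0.52 for Itln1, 0.51 for Ang4 and 0.55 for Mptx1, none past the threshold (adjusted p 0.785 to 0.94).

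Reg3b, a bactericidal lectin gene, had the opposite sign. It read 8.17, 10.21 and 11.52 in KO_antibiotic mice, against 10.80, 11.65, 12.11, 11.69 and 11.30 in WT_antibiotic mice. The groups overlap, with 4 of 6 KO arrays below all WT arrays, and the difference was -1.37 (SE 0.51, unadjusted p = 0.0121, adjusted p = 1). In the antimicrobial list of 22 tested genes the median was -0.10, beside 0.01 over all 10705 genes. At an unadjusted p under 0.05 it held 4 genes with a higher and 1 with a lower mean, beside 2.07% and 1.17% of all genes (3.24% in either direction).

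**Figure D3:**
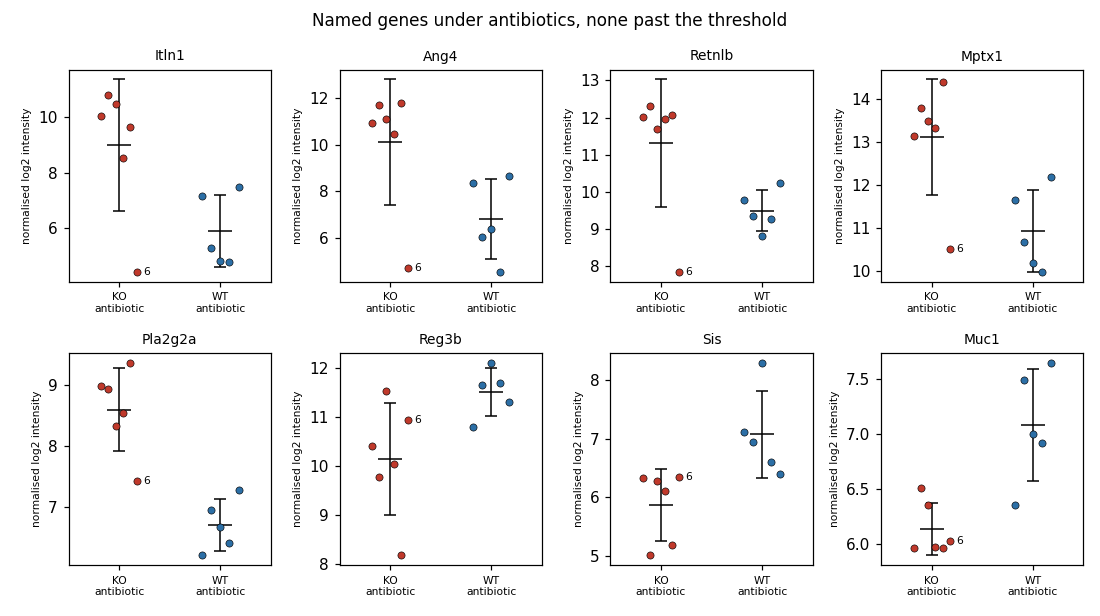
Normalised log2 intensity (vertical axis) of 8 genes that did not pass the threshold over all arrays, with 1 point per KO_antibiotic (red, left) and WT_antibiotic (blue, right) array and lines for mean ± SD (n = 6 and 5), the digit 6 marking KO_antibiotic 6. For Itln1, Ang4, Retnlb and Mptx1 the other 5 KO_antibiotic arrays lie above all WT_antibiotic arrays, and KO_antibiotic 6 lies far below those other KO_antibiotic arrays.

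Sis and Muc1 were lower by their means without passing. Sis, which encodes the brush border enzyme sucrase-isomaltase, read 5.01, 6.20 and 6.35 in KO_antibiotic mice, against 7.12, 6.95, 8.30, 6.61 and 6.40 in WT_antibiotic mice. The groups do not overlap, by 0.05 at the nearest arrays, and the difference was -1.20 (SE 0.27, adjusted p = 0.342). Other small intestinal markers stood at 0.33 for Apoa4 and -0.33 for Fabp6, with Lct undetected on all 11 arrays, and their part in the value of Sis was not tested. Muc1, a mucin gene of the epithelial surface, read 5.97, 6.01 and 6.51 in KO_antibiotic mice, against 6.36, 7.49, 7.0, 6.92 and 7.65 in WT_antibiotic mice. Here 4 of 6 KO arrays lay below all WT arrays, and the difference was -0.94 (SE 0.24, adjusted p = 0.863).

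A few less studied genes completed the smallest p-values and the largest negative differences. Cib3, which encodes a calcium-binding protein, read 5.65, 6.36 and 6.62 in KO_antibiotic mice, against 5.24, 5.33, 5.16, 5.19 and 5.39 in WT_antibiotic mice. Its groups do not overlap, the difference was 1.02 (SE 0.20, adjusted p = 0.0772), and it passed without KO_antibiotic 6 (1.15, adjusted p = 0.0126). Eml2, which encodes a microtubule-binding protein, was detected on 0 of 6 KO_antibiotic and 4 of 5 WT_antibiotic arrays. It was at least 2.01-fold lower in KO mice without passing (adjusted p = 0.284), and it passed without WT_antibiotic 1, where it read 4.50 (adjusted p = 0.0101). Cpne8, which encodes a membrane-binding copine, stood at -0.60 (SE 0.15, adjusted p = 0.609) and C2cd4c at 0.62 (SE 0.17, adjusted p = 1), both with groups that do not overlap. Sfi1 stood at -1.09 (SE 0.35), Gp2, which encodes a glycoprotein that binds bacteria, at -1.0 (SE 0.48) and Srp54a, which encodes part of the signal recognition particle, at -0.98 (SE 0.36). These 3 did not pass (adjusted p = 1 each).

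By the brightest probe of each gene, the 33 gene lists of pathways and cell types held 1 member past the threshold in 630 tested places, Sox13 itself, beside 0.0187% of all genes. Insig2, Kdm5b and Ctse are members too, and fell by another probe. By their median difference, MHC class II genes stood highest. All 12 tested class II genes had a higher mean in KO_antibiotic mice, with a median of 0.66 beside 0.01 over all genes, and 5 had an unadjusted p under 0.05, beside 2.07% of all genes. That count was 1 without KO_antibiotic 3 and 4 together and 3 without KO_antibiotic 6. H2-Ab1, the beta chain of the class II molecule that shows peptides to helper T cells, read 8.42, 8.95 and 10.06 in KO_antibiotic mice, against 7.36, 8.14, 8.52, 8.01 and 6.57 in WT_antibiotic mice. The difference of 1.31 (SE 0.47, adjusted p = 1) left 5 of 6 KO arrays above all WT arrays. H2-DMb2 and H2-DMa, chains of the peptide loading factor, stood at 1.20 (SE 0.49) and 0.99 (SE 0.42). In untreated mice the median of the class II list was 0.12, and 1 of its 12 genes had an unadjusted p under 0.05 for the difference between the genotype differences.

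Lymphocyte markers also leaned to higher means in KO_antibiotic mice. Of 17 tested T cell and intraepithelial lymphocyte markers (21 on the array), 16 had a higher mean in KO_antibiotic mice, with a median of 0.38, beside 5686 of all 10705 genes. At an unadjusted p under 0.05 stood 1 of them, Cd160 (0.74, SE 0.34), beside 2.07% of all genes, and 0 without KO_antibiotic 3 and 4 together. The summed T cell signal was 3750, 7407 and 13521 as the lowest, median and highest of the KO_antibiotic arrays and 3002, 4849 and 8947 on the WT_antibiotic arrays, so the groups overlap widely. Of 13 tested antibody transport and B or plasma cell genes (18 on the array), 12 had a higher mean, with a median of 0.37. The summed signal of that list, which counts no Pigr, was 3025, 3396 and 3832 on KO_antibiotic arrays and 2482, 2802 and 2940 on WT_antibiotic arrays, without overlap. The sum weighs the brightest members most and need not follow the B cell genes. In untreated mice its median was 3901 on KO and 3382 on WT arrays, while the median difference of the list was -0.13. Under antibiotics Cd79b of the B cell receptor stood at 1.0 (SE 0.45) and Pou2af1, a B cell coactivator gene, at 0.93 (SE 0.42), neither past the threshold. In untreated mice they stood at -0.72 and -0.29. KO_antibiotic 4 was the highest array for H2-Ab1 (10.06), H2-DMb2 (8.41), Cd79b (8.25) and Ltb (8.30), the lymphotoxin beta gene of lymphoid tissue. Without KO_antibiotic 3 and 4 the medians were 0.55 for the class II list, 0.16 for the T cell list and 0.24 for the B and plasma cell list. The part of lymphocytes in the class II values was not tested.

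Interferon-stimulated and MHC class I genes had small, one-sided medians. Of 33 interferon-stimulated genes 31 had a higher mean in KO_antibiotic mice (median 0.39), beside 5686 of all 10705 genes. An unadjusted p under 0.05 was found for 2 of them, beside 2.07% of all genes, and for 0 without KO_antibiotic 3 and 4 together. Oas3, a sensor enzyme of double-stranded RNA, stood at 0.83 (SE 0.39) with groups that do not overlap, and Irf9, a subunit of the interferon-activated transcription factor, at 0.51 (SE 0.22). Apol9b, named for the size of its difference and a member of none of these lists, stood at 1.19 (SE 0.53, adjusted p = 1). All 18 class I genes had a higher mean (median 0.23), with the immunoproteasome gene Psmb8 at 0.82 (SE 0.36). In untreated mice these medians were 0.29 and 0.35.

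Tuft cell genes had like medians with and without antibiotics. Tuft cells are chemosensory epithelial cells that make leukotrienes and call on type 2 immunity. Of 13 tested genes 12 had a higher mean in KO_antibiotic mice, with a median of 0.50 (0.51 in untreated mice), and 7 had an unadjusted p under 0.05, beside 2.07% of all genes. Avil, an actin-binding gene of tuft cells, read 5.39, 5.97 and 6.42 in KO_antibiotic mice, against 5.59, 5.59, 5.33, 4.62 and 4.95 in WT_antibiotic mice. Here 4 of 6 KO arrays lay above all WT arrays, and the difference was 0.70 (SE 0.22, adjusted p = 1). Alox5 and Ltc4s of leukotriene synthesis stood at 0.71 (SE 0.22) and 0.61 (SE 0.19), each with 5 of 6 KO arrays on the upper side of the WT mean and the other one, KO_antibiotic 6, below it. Each of these 2 genes was detected on 5 of 6 KO_antibiotic and only 1 of 5 WT_antibiotic arrays. The sizes of their differences are therefore uncertain. In untreated mice 6 of the 13 rose, beside 6.27% of all genes, among them Avil (1.56, adjusted p = 0.000333).

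Other epithelial lists were mixed or close to 0. The goblet cell list of 21 had a median of 0.12, with 4 genes higher and 1, Muc1, lower at an unadjusted p under 0.05, beside 2.07% and 1.17% of all genes. Surface colonocyte genes (31 tested, median -0.09) included the sodium-proton exchanger gene Slc9a3 at 0.46 (SE 0.21) and the sodium channel gene Scnn1g at -0.63 (SE 0.24). Ffar2, a receptor gene for short-chain fatty acids, stood at 0.54 (SE 0.17), and Nr5a2, a nuclear receptor gene of crypt cells, at 0.85 (SE 0.31). Ephx1 of xenobiotic metabolism stood at 0.71 (SE 0.21) and Mylk, the kinase that contracts the junctional actin ring, at -0.59 (SE 0.19). None of these passed after adjustment. The members named from the remaining lists did not pass either (adjusted p = 1 each). Their differences were positive for the chemokine genes Ccl9 (0.71) and Cxcl16 (0.48), for Ticam1 (0.47) and Rela (0.33) of pattern recognition, for Vwf of endothelium (0.46), for Sel1l of the unfolded protein response (0.41) and for the demethylase gene Phf2 (0.31). They were negative for Dnajc3 of the unfolded protein response (-0.62), Eno3 of glycolysis (-0.46) and Decr1 of fatty acid oxidation (-0.43). Pnliprp2, a pancreatic lipase-related gene, stood at 2.05 (SE 0.91) with KO_antibiotic 6 (4.67) as the lowest KO array, while the pancreas genes Prss2 and Cpa1 were detected on 0 of 6 KO_antibiotic and 2 of 5 WT_antibiotic arrays.

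**Figure D4:**
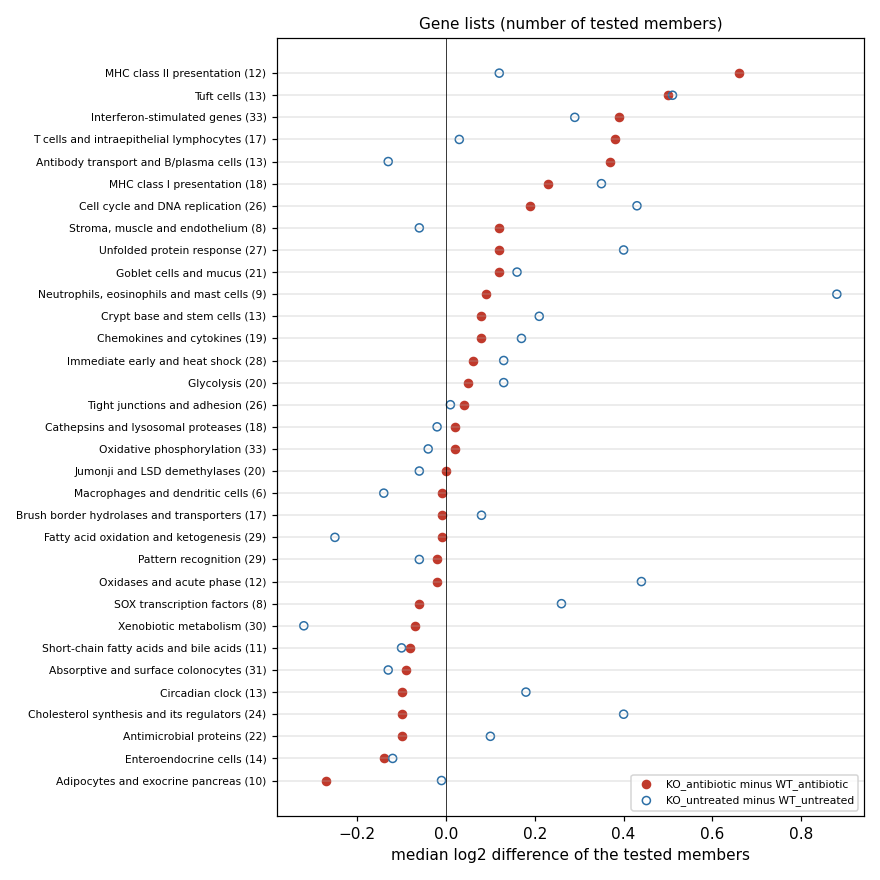
Median log2 difference (horizontal axis) of the tested members of 33 gene lists, with the number of tested members in brackets, for KO_antibiotic minus WT_antibiotic (filled red) and KO_untreated minus WT_untreated (open blue). Under antibiotics the medians run between -0.27 (adipocytes and exocrine pancreas) and 0.66 (MHC class II), and the lists of neutrophils, eosinophils and mast cells, unfolded protein response, cholesterol synthesis and oxidases lie nearer to 0 than in untreated mice.

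The genotype difference was smaller under antibiotics than without them for the probes called in untreated mice. There 2180 of the same 19993 probes passed (10.9%), 1110 higher (5.55%) and 1070 lower (5.35%) in KO_untreated mice, a split of 240 and 79 with median scaling over all probes. The untreated count was 856 without KO_untreated 1, 1062 without KO_untreated 5, 1401, 1152 and 1069 without WT_untreated 1, 4 and 5, and 1518 to 2081 without each other untreated array. Read under antibiotics, where no array is shared, 905 of the 1110 (81.5%) kept a positive sign, but their median was 0.12, against 0.65 in untreated mice. Of the 1070, 908 (84.9%) kept a negative sign, with a median of -0.20, against -0.84. With single arrays left out, these medians lay between 0.08 (without KO_antibiotic 3) and 0.19 (without KO_antibiotic 6 or WT_antibiotic 2), and between -0.33 (without WT_antibiotic 2) and -0.10 (without KO_antibiotic 3). Since these probes were chosen for a large difference in untreated mice, a smaller value in other mice is partly built into the choice. Of all 10705 genes by their brightest probe, 5686 had a positive and 5019 a negative difference under antibiotics. At an unadjusted p under 0.05 and in the same direction under antibiotics stood 92 (8.29%) and 66 (6.17%), beside 1.74% and 1.54% of all tested probes. Both genotype differences were tested with the same normalisation and the same pooled spread per probe. Probes with a small pooled spread pass more easily in both, so these shares are a description and no independent replication. In the opposite direction under antibiotics 0 stood at an unadjusted p under 0.05. The KO_antibiotic arrays spread widely in this respect, with array medians of -0.17 to 0.37 over the first set and -0.64 to 0.33 over the second. Across the 19993 probes the 2 differences had a Pearson r of 0.46 and a Spearman rho of 0.44, probes being no independent replicates.

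The test of the difference itself called 2 probes (0.01%) and, with the brightest probe per gene, 0 of 10705 genes (960, or 8.97%, at an unadjusted p under 0.05). Both called probes had risen in untreated KO mice: 1 for Defa3 (ILMN_2524832), a defensin gene of Paneth cells, at a fitted -2.71 (adjusted p = 0.0148), and 1 unnamed probe (ILMN_1254739) at a fitted -3.21 (adjusted p = 0.0129). Both were detected on 6 of 6 KO_untreated and 2 of 5 WT_untreated arrays, through which they entered the test, and on 0 of the 11 antibiotic arrays. With no measured level under antibiotics, the fitted values are no measured size of a difference. Defensin genes are near-identical copies, so which of them the probes measured is uncertain. With array weights 17 probes passed, with single untreated arrays left out 1 to 22 (22 without WT_untreated 3, and 13, 9 and 4 without KO_untreated 3, 5 and 6, but 1 without WT_untreated 1, 2 or 5), and with the authors' own values, without background correction, with no filter, with median scaling over all probes or without KO_antibiotic 3 and 4 together 0 did.

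**Figure D5:**
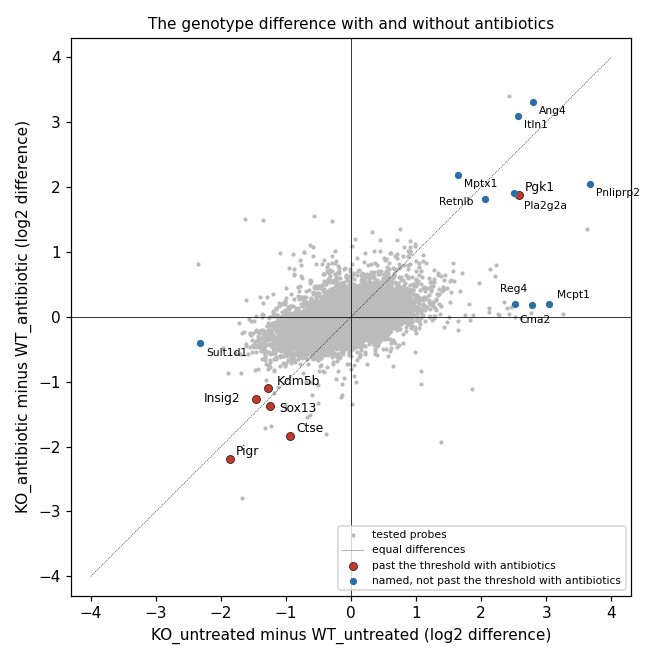
Log2 difference under antibiotics, KO_antibiotic minus WT_antibiotic (vertical axis), against that without them, KO_untreated minus WT_untreated (horizontal axis), with 1 point per tested probe, the 6 probes past the threshold under antibiotics in red and other named genes in blue. Each red point lies on the same side of 0 on both axes (the dotted line marks equal differences), and Cma2, Mcpt1 and Reg4 lie near 0 on the vertical axis.

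Genes with the largest untreated rises included mast cell proteases. Mcpt1, which encodes a mast cell protease, was 3.04 higher in untreated KO mice (adjusted p = 0.00536). Under antibiotics it read 4.37, 6.24 and 7.31 as the lowest, median and highest KO_antibiotic array, against 6.59, 5.59, 5.98, 5.03 and 5.95 in WT_antibiotic mice, a difference of 0.20 (SE 0.61) with overlapping groups. The chymase gene Cma2 stood at 0.18 (SE 0.44), beside 2.78 in untreated mice, and Reg4, a secreted lectin gene, at 0.20 (SE 0.49), beside 2.52. Their differences between the genotype differences were -2.84 for Mcpt1, -2.60 for Cma2 and -2.32 for Reg4, none past the threshold (adjusted p 0.236 to 0.424). Cma2 was detected on only 1 of 6 KO_antibiotic, 1 of 5 WT_antibiotic and 2 of 5 WT_untreated arrays. Its values are therefore no measured size. The summed signal of 9 neutrophil, eosinophil and mast cell markers was 741 to 1428 in KO_antibiotic and 654 to 1926 in WT_antibiotic mice, beside 1764 to 4509 in KO_untreated and 599 to 1799 in WT_untreated mice.

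Among genes lower in untreated KO mice, the sulfotransferase gene Sult1d1 read 9.14, 9.94 and 10.92 in KO_antibiotic mice, against 10.42, 9.66, 10.60, 10.74 and 10.15 in WT_antibiotic mice. The groups overlap and the difference was -0.41 (SE 0.29), beside -2.32 (adjusted p = 9.06e-05) in untreated mice, and the difference between them of 1.91 did not pass (adjusted p = 0.126). Usp53 stood at -0.56 (SE 0.40) and Zfp97 at -0.10 (SE 0.31), beside -1.78 and -1.73. Ugt8a, a gene of galactolipid synthesis, stood at -0.87 (SE 0.31, adjusted p = 1), beside -1.89, with 5 of 6 KO_antibiotic arrays below all WT_antibiotic arrays.

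By list, cholesterol synthesis genes had a median of -0.10 under antibiotics and 0.40 without, and 9 of 24 had an unadjusted p under 0.05 for a lower genotype difference under antibiotics, beside 5.09% of all genes. For the unfolded protein response these values were 0.12, 0.40 and 9 of 27. For xenobiotic metabolism they were -0.07, -0.32 and 7 of 30 for a higher genotype difference, beside 3.88%. None of these genes passed after adjustment. The oxidase and acute phase list stood at -0.02 under antibiotics and 0.44 without.

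How small a difference could pass differed between the treatments. The median SE was 0.177 for both genotype differences, but the smallest called difference was 1.10 under antibiotics and 0.334 in untreated mice, since the adjusted threshold depends on how many probes have small p-values. The median SD per probe was 0.313 in KO_antibiotic and 0.277 in WT_antibiotic arrays, beside 0.259 in KO_untreated and 0.251 in WT_untreated arrays. A gene that did not pass under antibiotics is therefore not shown to be alike in the genotypes.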

How the data were processed

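RNA of colon epithelial cells was measured on 22 Illumina mouse arrays. Per the file headers, the deposited scanner table holds a mean bead intensity per probe on a linear scale and, in the deposited columns beside it, a detection p-value per probe and array, for 45281 probes. The authors' processed intensity table, whose columns share the same sorted values, served as an alternative. The sources used here give neither software nor image processing.

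Background correction and quantile normalisation used neqc (limma 3.58.1, R 4.3.3, offset 16). Probes with a detection p under 0.05 on at least 5 arrays were tested (19993). A limma fit (lmFit, eBayes) over the 22 arrays estimated the 4 group means. Its 3 two-sided contrasts were KO_antibiotic minus WT_antibiotic, KO_untreated minus WT_untreated and the difference between those (the interaction). P-values were adjusted by Benjamini-Hochberg over the 19993 probes of each contrast. The number of arrays limits the precision. A gene was represented by its brightest tested probe (10705 genes). Symbols came from the platform annotation, updated to the RefSeq gene table of GRCm38.p6: 34885 probes had 1 symbol, 18 several and 10378 none. Of the symbols, 34807 matched by gene identifier and 11 by accession, and 67 were kept as the file gives them. Where no array of a group detected a probe, the fold is a lower bound, taken against the lowest detected signal of each array. The scripts were tested on simulated data.

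The genes named are the called probes with the other probes of their genes, the 10 largest positive and 10 largest negative differences among genes at an unadjusted p under 0.05, the 10 smallest p-values, up to 3 members per gene list at an unadjusted p under 0.05, the 5 largest rises and 5 largest falls in untreated mice, and genes within 100 of Pigr at an unadjusted p under 0.01. Unnamed probes and predicted genes were passed over. The comparison, the 33 lists and this rule were chosen with earlier results of these data known. Alternatives were no background correction, median scaling (over all probes or over probes detected on all arrays), array weights, the authors' values, no filter, a filter at a detection p under 0.01 (16644 probes), the replicate block, the compared groups alone, probes averaged per gene, each of the 11 antibiotic arrays left out in turn, KO_antibiotic 3 and 4 left out together, and windows of 50 and 200 genes. The lists without KO_antibiotic 6, and the untreated and interaction counts without each untreated array, were added after seeing the data.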

Additional observations from a re-analysis of the deposited data

Results flagged for a closer look

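Arrays far from the rest of their group were looked for in 168 groups (each named probe and marker sum in KO_antibiotic and WT_antibiotic mice) by Dixon's 95% limit on the gap to the nearest array, which flags about 1 in 20 groups by chance. It picked 19, or 11.3%. KO_antibiotic 6 accounts for 5 of them: it was the lowest KO_antibiotic array for Mptx1 (10.51, nearest 13.15), Itln1 (4.41, nearest 8.54), Ang4 (4.71, nearest 10.46) and Retnlb (7.84, nearest 11.68), and the highest for Nr5a2 (10.79, nearest 9.43).

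Of the other arrays, KO_antibiotic 2 was high for Cma2 (6.13), KO_antibiotic 5 for Reg4 (7.54) and for the sum of neutrophil, eosinophil and mast cell markers (1428), and KO_antibiotic 1 for the enteroendocrine sum (4092). Among WT_antibiotic arrays, array 1 was high for Cma2 (5.09) and for the neutrophil, eosinophil and mast cell sum (1926) and low for Reg4 (5.21). WT_antibiotic 2 was high for Defa3 by ILMN_2691897 (4.73, a level at which the probe was not detected) and low for Dnajc3 (6.54) and Usp53 (6.89). WT_antibiotic 3 was high for Nr5a2 (9.60), WT_antibiotic 4 for Pigr (12.01) and WT_antibiotic 5 for Pnliprp2 (6.76) and for the sum of adipocyte and exocrine pancreas markers (14833, nearest 4661).

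The test of the difference between the genotype differences called the unnamed probe ILMN_1254739 (fitted value -3.21) and Defa3 by ILMN_2524832 (fitted value -2.71). Both were detected on untreated arrays and on 0 of 11 antibiotic arrays, so these values are no measured size, and neither was called with no filter, without background correction or with the authors' values.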

How the results depend on the processing

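Pgk1 and Sox13 passed under all 22 alternatives to the reported fit, Pigr and Insig2 under 21, Kdm5b under 20 and Ctse under 12. With median scaling over all probes, which moved the median of all probes by 0.07, 2 probes passed in place of 6, and Pigr (-2.04, adjusted p = 0.154), Insig2 (-1.17, adjusted p = 0.618), Kdm5b (-1.03, adjusted p = 0.154) and Ctse (-1.70, adjusted p = 0.121) did not; the probes at an unadjusted p under 0.05 were then 325 higher and 75 lower, against 347 and 307. With probes averaged per gene, Kdm5b (-0.36, adjusted p = 1) and Ctse (-1.03, adjusted p = 0.287) did not pass. Ctse was also lost with no filter (-1.84, adjusted p = 0.118) and without KO_antibiotic 3 and 4 together (-1.69, adjusted p = 0.225). The causes were not tested. With each of the 11 antibiotic arrays left out in turn, the called probes numbered 5 to 12 (12 without KO_antibiotic 6), Ctse lay between -1.93 and -1.72, the untreated count between 1868 and 2727, through the pooled spread alone, and the interaction count was 2 each time. With each untreated array left out in turn, an alternative chosen after seeing the data, the untreated count lay between 856 (without KO_untreated 1) and 2081 and the interaction count between 1 and 22 (without WT_untreated 3).

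The untreated count was 319 with median scaling over all probes (240 higher and 79 lower) and 982 with no filter. The interaction count was 17 with array weights and 0 without background correction, with median scaling over all probes, with the authors' values, with no filter and without KO_antibiotic 3 and 4 together. Arrays with the same replicate number had correlations of 0.01, 0.53, -0.07, 0.23 and 0.20 between KO_antibiotic and WT_antibiotic. Only that of replicate 5 exceeded its highest value with another number (0.17), so a pairing by the number was neither shown nor excluded. With the replicate block 5 probes passed, Ctse not (-1.83, adjusted p = 0.0867), and 3358 in untreated mice. The median of the neighbours of Pigr was -0.06 within 50 genes. By more than the spread between KO_antibiotic arrays, the list medians moved for neutrophils, eosinophils and mast cells (-0.03 with median scaling over detected probes, 0.12 without KO_antibiotic 6), adipocytes and pancreas (-0.19 without KO_antibiotic 3 and 4, -0.36 without KO_antibiotic 6) and pattern recognition (0.08 without KO_antibiotic 6). Of the values of single named genes 1419 stayed on their side, 13 newly passed and 20 turned sign. The second probes of Insig2 (-0.84) and Pgk1 (0.97) newly passed only where averaged with the called probe of their gene. The values that turned sign were all uncalled: Cma2 (-0.10, up to 0.32 with single arrays left out), Defa3 by ILMN_2691897 (0.00 to 0.06, that is 0.01, 0.02 and 0.04 besides) and by ILMN_2524832 (-0.04 and -0.05), ILMN_1254739 (-0.06 and -0.07), the brightest Kdm5b probe (0.27 in the reported fit, -0.36 averaged with the called one), Mcpt1 (-0.06, -0.04 and 0.00), Reg4 (-0.09 and 0.00, up to 0.33) and Zfp97 (0.00, 0.02, 0.10 and 0.11). The planned block for slides was not run, as no slide is named in the files.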
